A study of Mus musculus with 2 samples.

Results

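The LIF-Stat3 pathway was followed through 9 genes, chosen by symbol from the 32285 genes of the count tables: Lif, Lifr, Il6st, Jak1, Stat3, Socs3, Pim1, Pim3 and Gbx2. Each symbol matched 1 gene, so all 9 were measured. They were chosen with earlier results of these data known, and no filter on measured level was used. They were read in embryonic stem (ES) cells of the mouse strain C3H/HeSn-Paf/J, by single-cell RNA sequencing in droplets, with 9 lines pooled in 1 library at an early passage (time 1) and in 1 library after 10 more passages (time 2). The pool held 3 lines each from XX, XO and XY embryos. At both times the cells grew on gelatin and irradiated mouse embryonic fibroblast feeders, in medium with 15% fetal bovine serum and LIF, so every cell described here had been exposed to LIF and no group without it was compared. Nothing in the tables links a cell to its line, age or culture plate.

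LIF, a cytokine of the interleukin 6 family, binds the receptor chain Lifr, which pairs with the shared signalling chain Il6st (gp130). The receptor-bound kinase Jak1 then phosphorylates Stat3, which enters the nucleus and switches on its targets, among them Socs3, an inhibitor that closes the loop on the receptor. In mouse ES cells in serum this signal holds the cells in the naive pluripotent state, and Pim1, Pim3 and Gbx2 are known targets there. Primed pluripotent cells, the counterpart of the later epiblast, do not need LIF and use Fgf and activin signals instead.

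After filters, 24844 cells of time 1 (median 44733.5 UMIs, the count of distinct RNA molecules) and 25964 cells of time 2 (median 50704.5 UMIs) were kept, and 175 cell barcodes occurred in both libraries. Clustering without the 9 genes and without 35 other pathway genes gave 14 clusters, named here by their leading gene or, where fixed markers allowed, by type. Pluripotent-like cells numbered 9196 at time 1 and 20158 at time 2. They lay mostly in the Rhox9-led cluster at time 1 (7712 cells, against 606 at time 2) and in the Gm46332-led (12296, against 54) and Nanos3-led (5075, against 57) clusters at time 2, so these clusters may stand for a library as much as for a state. The Jam2-led cluster (1373 and 2181 cells) had the highest naive marker score of the pluripotent-like clusters (0.73), the mean over 8 markers of each marker's z-score across these 4 clusters, and is called naive-marker-high for that. The summed CPM of these markers was higher in the Nanos3-led cluster. Primed-like (6867 and 227 cells), mesendoderm-like (1208 and 578), fibroblast-like (466 and 744) and endothelial-like (70 and 178) cells were found at both times, and endoderm-like cells (104) could be measured at time 2. The unnamed Spry2-led (6692 cells at time 1) and Id1-led (3898 at time 2) clusters, described below, enter none of these groups. All 11 pluripotency markers had UMIs even in fibroblast-like cells, where Dppa5a, a marker of ES cells, stood at 2212 counts per 1000000 UMIs (CPM) at time 1 and 1977 CPM at time 2, against 8439 and 4503 CPM in pluripotent-like cells. Col1a1, a fibroblast collagen, stood at 857 and 540.2 CPM in fibroblast-like cells and at 2.23 and 1.87 CPM in pluripotent-like cells. Barcodes of 500 to 1000 UMIs, too few for a cell, held Lifr at 14.3 and 30.7 CPM, Stat3 at 21.1 and 36.3 CPM and Pim1 at 181 and 103 CPM. Of the scarce members they held Lif at 2.61 and 2.09 CPM and Gbx2 at 1.56 and 4.59 CPM, on 6 to 22 UMIs each, with intervals that held the pluripotent-like level of both genes at both times. The part of such free RNA in the levels of the rarer cells was not tested.

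Levels below are summed UMIs of all cells of a group, in CPM, with 95% exact Poisson intervals that cover counting error only. Differences are log2 ratios of CPM + 1, which understate the change of genes at a few CPM, and a gene is called higher or lower past 1.5-fold (0.58 on that scale). With 1 library per time point there is no spread between replicates and no test between groups. Levels are compared within a gene and not between genes.

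**Figure D1:**
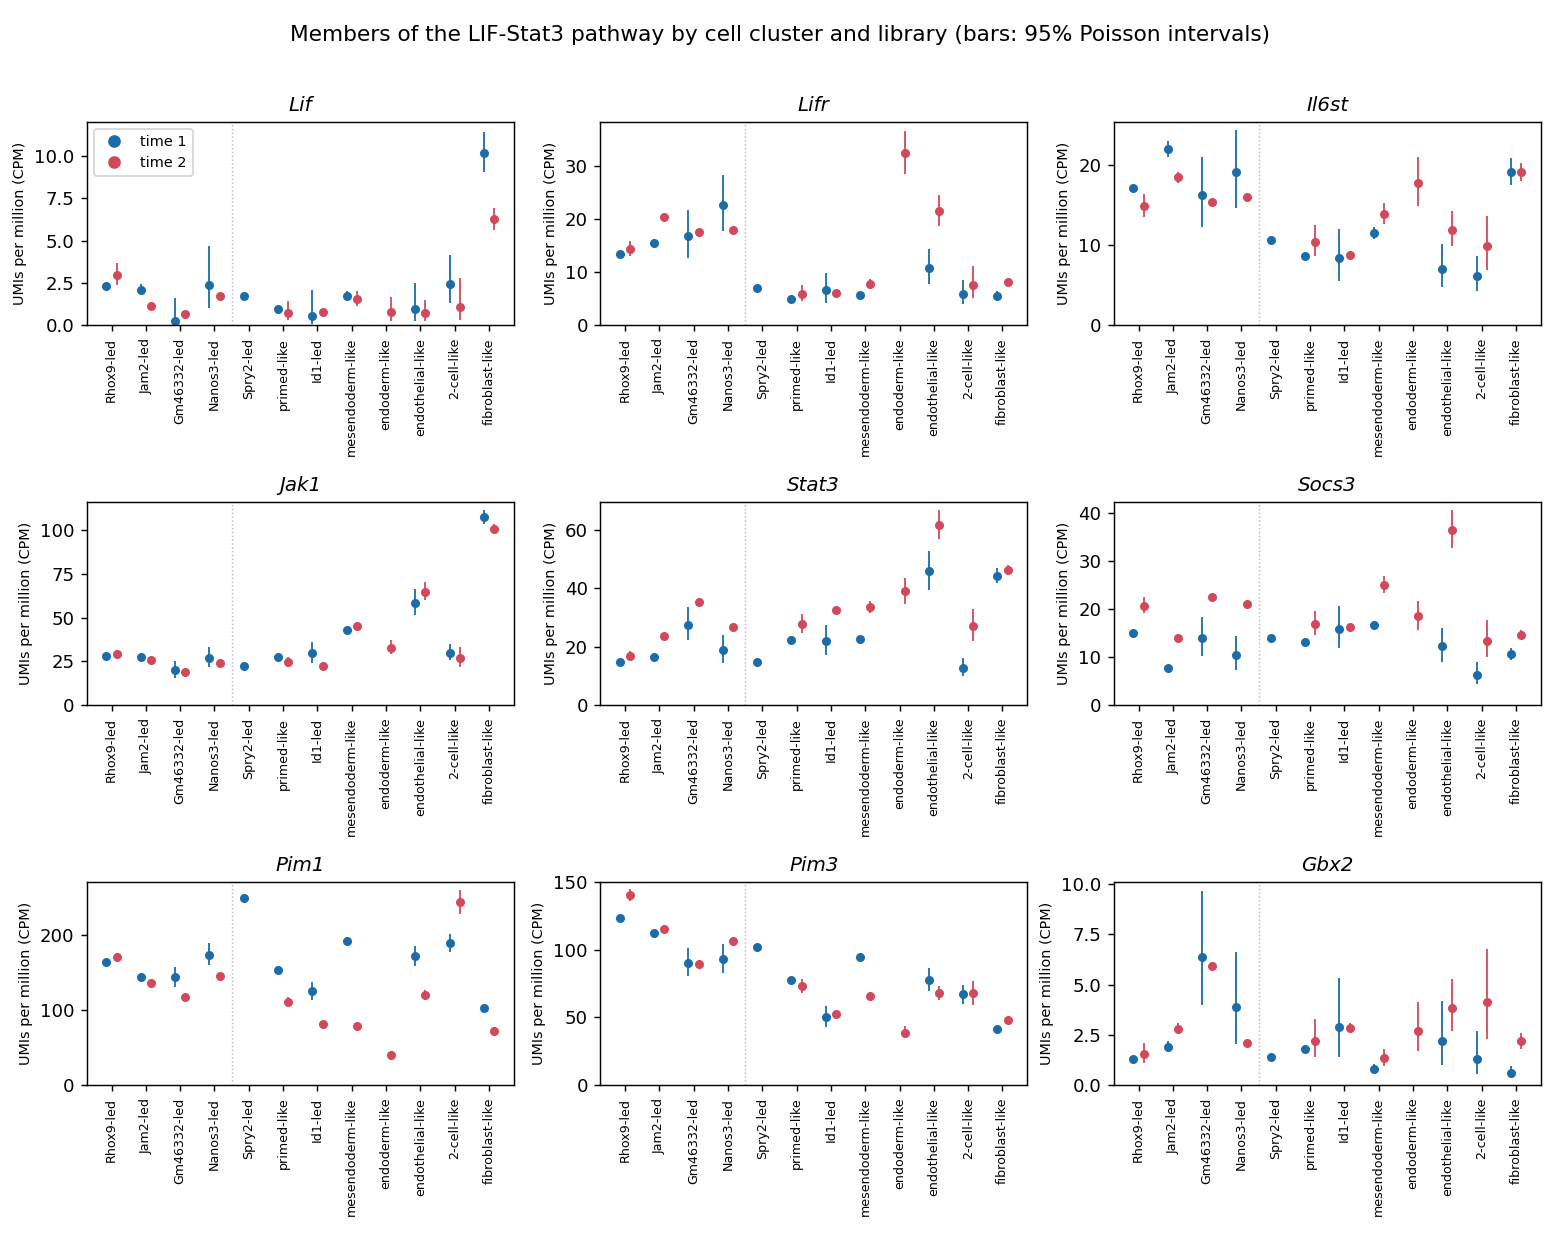
Level of each of the 9 genes (vertical axis, CPM) in 12 cell clusters (horizontal axis) of the time 1 and time 2 libraries, with 95% Poisson intervals for counting error. The 4 clusters left of the dotted line are pluripotent-like. Lif and Jak1 stood highest in fibroblast-like cells, Lifr in endoderm-like cells, Stat3 and Socs3 in endothelial-like cells of time 2, Pim1 in the Spry2-led cluster and Pim3 in the Rhox9-led cluster.

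Lif, the ligand (chr11:4257557-4272514), was highest in the fibroblast-like cells. It reached 10.2 CPM (9.03 to 11.4) there at time 1 and 6.26 CPM (5.63 to 6.94) at time 2. Pluripotent-like cells held 2.29 CPM at time 1 (interval 2.16 to 2.42) and 1.04 CPM at time 2 (0.983 to 1.10). The log2 ratio of fibroblast-like over pluripotent-like cells was 1.77 at time 1 and 1.83 at time 2. Every other group of 50 or more cells, from 0.290 CPM in the 54 Gm46332-led cells of time 1 to 2.98 CPM in the Rhox9-led cells of time 2, lay below both fibroblast-like values, and none of these neighbours in the order was separated from the next by its counting interval.

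Lifr, the LIF-binding receptor chain (chr15:7090614-7197489), was higher in the pluripotent-like clusters than in primed-like, mesendoderm-like and fibroblast-like cells. Pluripotent-like cells held 13.8 CPM at time 1 (interval 13.5 to 14.1) and 17.9 CPM at time 2 (17.6 to 18.1). Primed-like cells held 4.99 and 5.96 CPM, mesendoderm-like cells 5.68 and 7.80 CPM, and fibroblast-like cells 5.51 and 8.22 CPM. The 8 pluripotent-like values, 4 clusters at each time, ran from 13.4 to 22.7 CPM and did not overlap any of these. Lifr was highest in the endoderm-like cells of time 2, at 32.4 CPM (28.5 to 36.7), whose interval met no other cluster's. Against pluripotent-like cells the log2 ratios were -1.31 and -1.44 in primed-like cells and 0.82 in endoderm-like cells. The mesendoderm-like difference of time 1 changed with the settings, as given below.

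Il6st, the chain shared by the family's receptors (chr13:112464070-112510086), was lower in primed-like than in pluripotent-like cells and alike in fibroblast-like and pluripotent-like cells. Pluripotent-like cells held 18.0 CPM at time 1 (interval 17.6 to 18.3) and 15.9 CPM at time 2 (15.7 to 16.1), and primed-like cells 8.62 and 10.5 CPM. The log2 ratios were -0.98 and -0.56, and the first passed 1.5-fold. The second depended on the settings, at -0.70 with TMM scaling (by trimmed mean of log ratios), which took it past the limit. With a minimum of 5000 UMIs per cell it was 0.11, so its direction turned. Fibroblast-like cells held 19.2 CPM at both times, with log2 ratios of 0.09 and 0.25 to the pluripotent-like cells, while their Lifr was lower by 1.19 and 1.03 on the log2 scale. The Jam2-led cells of time 1 had the highest Il6st level, 22.0 CPM. Over the 10 sums of pluripotent-like and primed-like clusters by library, Lifr and Il6st had a Pearson r of 0.89, and over all 24 sums r was 0.68. These sums share 2 libraries and are given as a description.

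Jak1, the kinase bound to the receptor (chr4:101152367-101265282), was higher in mesendoderm-like, endothelial-like and fibroblast-like cells than in pluripotent-like and primed-like cells. Pluripotent-like cells held 28.1 CPM at time 1 (interval 27.6 to 28.5) and 21.4 CPM at time 2 (21.1 to 21.6), and primed-like cells 27.4 and 24.7 CPM. Mesendoderm-like cells held 43.1 and 45.2 CPM, endothelial-like cells 58.5 and 64.9 CPM, and fibroblast-like cells 107 CPM (104 to 111) and 101 CPM (98.2 to 103). Mesendoderm-like, endothelial-like and fibroblast-like cells had the same order at both times, and the fibroblast-like intervals met no other. The log2 ratios to pluripotent-like cells were 0.60 and 1.05 in mesendoderm-like cells and 1.90 and 2.19 in fibroblast-like cells. The first of these lay close to the limit and fell to 0.47 with TMM scaling.

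Stat3, the transcription factor of the pathway (chr11:100885098-100939540), was higher at time 2 than at time 1 in pluripotent-like cells. It stood at 15.2 CPM at time 1 (interval 14.9 to 15.6) and 31.6 CPM at time 2 (31.2 to 31.9). Among pluripotent-like clusters it ran from 14.8 CPM (Rhox9-led, time 1) to 35.2 CPM (Gm46332-led, time 2). Endothelial-like cells held 45.8 and 61.6 CPM and fibroblast-like cells 44.3 and 46.1 CPM. The fibroblast-like level was thus alike at both times, and its ratio (log2 1.48, then 0.53) moved with the pluripotent-like level it was set against. Primed-like cells, at 22.3 and 27.9 CPM, lay above the pluripotent-like level at time 1 (log2 ratio 0.52) and below it at time 2 (-0.17).

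Socs3, the feedback inhibitor and a Stat3 target (chr11:117966079-117970047), had a Stat-type motif in its promoter window. The motif searched was TTCNNNGAA, which reads the same on both strands, in the 300 bases from 250 before to 50 after each RefSeq start site (GRCm38.p6). It was found in 8.30% of 32851 promoters and in 9.55% of 27025 genes. Of the 9 members (11 promoters) 1 held it, which is close to that share of genes, as did 2 of the 28 listed pathway genes that had a promoter, Gab1 and Cish. A match describes letters and not a bound site, and a window without one says nothing about binding outside it. The first 150 bases of the Socs3 window, at chr11:117969467-117969616 on the minus strand, overlap no annotated exon and lie within an intron of 1 GENCODE transcript. They are shown 5′ to 3′ because they hold this match, in capitals, 154 bases before the start site:
Socs3: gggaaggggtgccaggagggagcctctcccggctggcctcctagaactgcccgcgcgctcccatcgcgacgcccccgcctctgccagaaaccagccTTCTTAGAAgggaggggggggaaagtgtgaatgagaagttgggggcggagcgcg

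The Socs3 level was lower in the naive-marker-high cells than in the other pluripotent-like cells at both times. At time 1 the Jam2-led cells held 7.73 CPM and the other pluripotent-like cells 15.1 CPM. At time 2 they held 14.0 and 22.2 CPM. The log2 ratios were -0.88 and -0.63. Across all types Socs3 ran from 6.38 CPM in the 109 2-cell-like cells of time 1 to 36.6 CPM in the 178 endothelial-like cells of time 2, which together with the mesendoderm-like cells of time 2 (25.1 CPM) stood above all pluripotent-like clusters. Primed-like cells, at 13.1 and 16.97 CPM, differed from pluripotent-like cells (13.8 and 21.2 CPM) by less than 1.5-fold at both times.

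Pim1 and Pim3, serine/threonine kinases that favour survival and self-renewal, were lower in endoderm-like and fibroblast-like than in pluripotent-like cells. Pim1 (chr17:29490753-29496112) stood at 161 CPM at time 1 and 127 CPM at time 2 in pluripotent-like cells. It was lowest in endoderm-like cells, at 40.4 CPM (36.1 to 45.1), with a log2 ratio of -1.63, and highest in the Spry2-led cluster of time 1, at 249 CPM (247 to 251), whose interval met those of the 59 2-cell-like cells of time 2 (243 CPM) and of the blood-like cells of time 1. That cluster was left unnamed by judgement, and its cells had a median of 28934 UMIs. No listed marker was among its leading genes, but none was in the Rhox9-led cluster either. Over both libraries, its summed pluripotency markers, at 8492 CPM, lay above those of the Gm46332-led (6675 CPM) and Nanos3-led (7327 CPM) clusters, mostly of time 2. Within time 1 its sum of 8502 CPM lay below every pluripotent-like cluster, from 8985 CPM (Gm46332-led) to 13210 CPM (Jam2-led). Its primed epiblast markers were higher than in the Gm46332-led and Nanos3-led clusters (343 against 123 and 84.6 CPM). They also lay above every pluripotent-like cluster of time 1 (119 to 188 CPM). Its 6692 cells of time 1 are outside the pluripotent-like group. Mesendoderm-like cells held 192 CPM at time 1 and 78.3 CPM at time 2, above the pluripotent-like level at the first time and below it at the second. Endothelial-like cells, at 172 and 120.2 CPM, stayed within 1.5-fold of it at both times. The 56 blood-like cells of time 1, at 241 CPM, stood above it but also within 1.5-fold. Pim3 (chr15:88862186-88865726) stood at 121 and 97.9 CPM in pluripotent-like cells. It was lowest in endoderm-like cells (38.7 CPM) and in fibroblast-like cells (41.5 and 48.0 CPM), and highest in the Rhox9-led cells (123 and 141 CPM). The log2 ratio of Pim3 in fibroblast-like cells was -1.52 at time 1 and -1.01 at time 2.

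Gbx2, a homeobox transcription factor downstream of Stat3 (chr1:89927956-89931179), was scarce everywhere, at 6.38 CPM or less in every cluster. Pluripotent-like cells held 1.47 CPM at time 1 (interval 1.37 to 1.58) and 4.602 CPM at time 2 (4.48 to 4.73). The Gm46332-led cells were highest, at 6.38 CPM in 54 cells of time 1 and 5.91 CPM at time 2. The other pluripotent-like clusters ran from 1.32 to 3.88 CPM. The lowest levels, 0.433 CPM in 56 blood-like cells and 0.576 CPM in fibroblast-like cells of time 1, could not be told apart by their counting intervals. An unnamed group of 69 barcodes of time 1, led by Card19 and with a median of about 352630 UMIs, had the lowest levels of Lifr (2.25 CPM), Il6st (4.66 CPM), Jak1 (7.32 CPM) and Stat3 (7.08 CPM) of all clusters.

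Between the naive-marker-high cluster and the other pluripotent-like cells few of the 9 genes differed. Socs3 alone was past 1.5-fold at time 1, lower, where 4.42% of 5366 genes with at least 20 CPM in either group were lower and 6.09% higher. A gene near 20 CPM can meet that level only through the group where it is high, so these shares describe the genes tested, and counts of listed pathway genes at that level share this limit. Socs3 was below it at time 1, and at time 2 met it in the other pluripotent-like cells alone. At time 2 Socs3 and Gbx2 were lower (-0.63 and -0.62), with 4.72% of 5194 genes lower and 9.18% higher. Of the other pathway genes at that level, 2 of 11 were higher and 1 lower at time 1, and 1 of 10 was higher and 2 lower at time 2. Klf4, a pluripotency factor and Stat3 target, held 153 CPM in the Jam2-led cells against 60.9 CPM at time 1 and 302 against 103 CPM at time 2. Tfcp2l1, another such target, held 61.9 against 34.8 CPM and 86.8 against 70.5 CPM. Socs2, a further inhibitor of cytokine signalling, was lower at both times, at 58.5 against 114 CPM and 66.5 against 109 CPM. Of the Jam2-led cells, 1231 of 1373 at time 1 and 2021 of 2181 at time 2 were X-high, a class described below. X-high cells of time 1 held 7.49 CPM of Socs3 in the Jam2-led cluster and 11.4 CPM in the Rhox9-led cluster.

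Primed-like cells had less Lifr at both times, and less Il6st past 1.5-fold at time 1. At time 1, 4 members were lower past 1.5-fold and 0 higher, namely Lif (-0.75), Lifr (-1.31), Il6st (-0.98) and Pim3 (-0.63). Of genes with at least 20 CPM in either group, 8.78% of 5480 were lower and 7.83% higher, and Pim3 alone of the 4 met that level. At time 2, with 227 primed-like cells, Lifr (-1.44) and Gbx2 (-0.81) were lower, where 7.32% of 5329 genes were lower and 10.2% higher. Neither Lifr nor Gbx2 met 20 CPM in either group. Jak1, Socs3 and Pim1 stayed within 1.5-fold at both times. Among the other pathway genes, Tfcp2l1 held 39.5 CPM in pluripotent-like and 6.80 CPM in primed-like cells at time 1, and 72.4 and 9.82 CPM at time 2. Klf4 differed in the same direction (76.9 against 23.6 CPM, and 126 against 20.7 CPM). Junb, an immediate early factor that many signals raise, is also on the list as a Stat3 target. It went the other way and was higher in primed-like cells, at 123 against 34.8 CPM and 101 against 46.9 CPM. Of 11 listed genes at 20 CPM or more, 1 was higher and 2 lower at time 1, and 1 of 10 was higher and 2 lower at time 2.

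The Id1-led cluster, left unnamed and mostly of time 2 (3898 cells, against 65), had levels close to the primed-like ones for the receptors. Its summed primed epiblast markers stood at 914 CPM at time 1 and 621 CPM at time 2. Primed-like cells held 728 and 683 CPM of these markers, and pluripotent-like cells 159 and 113 CPM. The Id1-led cells are not among the primed-like cells counted above. Lifr stood at 6.02 CPM and Il6st at 8.75 CPM at time 2. Lifr, Il6st, Pim1 and Pim3 were lower than in pluripotent-like cells (-1.43, -0.79, -0.63 and -0.88), where 8.41% of 5244 genes were lower and 8.41% higher. Its 65 cells of time 1 also had less Lifr (-0.96), Il6st (-1.02) and Pim3 (-1.25), with Pim1 at -0.36, where 11.6% of 5597 genes were lower and 11.9% higher. Lif (-1.06) and Gbx2 (0.65) were also past the limit there, on 2 and 10 UMIs. Of the members past the limit in the Id1-led cluster, only Pim1 and Pim3 at time 2 and Pim3 at time 1 met the level of 20 CPM behind these shares. The Stat3 level of time 2, 32.7 CPM, differed from the pluripotent-like 31.6 CPM by 0.05 on the log2 scale. The Spry2-led cluster of time 1 also had less Lifr (6.99 CPM, -0.89) and Il6st (10.6 CPM, -0.71), but more Pim1 (0.63), where 4.36% of 5255 genes were lower and 2.89% higher. Pim1 alone of these members met 20 CPM.

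**Figure D2:**
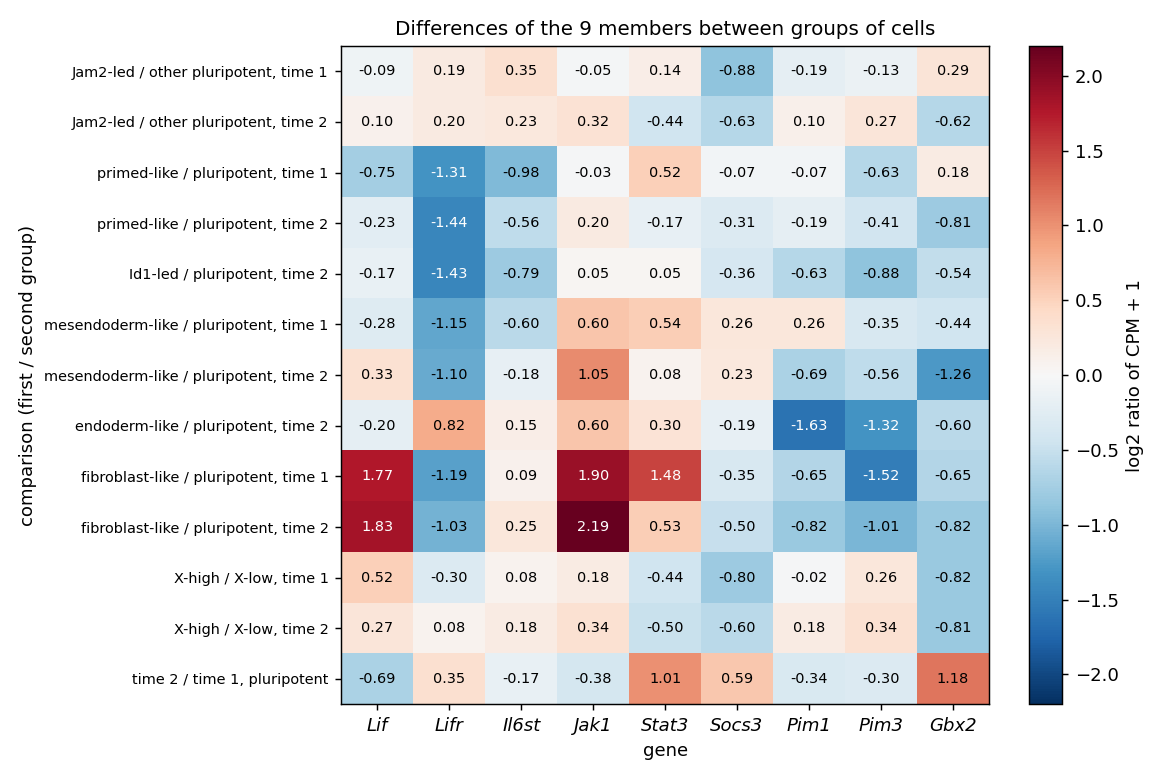
Log2 ratio of CPM + 1 (colour and printed value) for each of the 9 genes (columns) in 13 comparisons (rows, first group over second). The Lifr column is negative in all primed-like, Id1-led, mesendoderm-like and fibroblast-like rows and positive, at 0.82, in the endoderm-like row; Lif and Jak1 are strongest in the fibroblast-like rows.

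Mesendoderm-like cells had more Jak1 and less Lifr at both times. At time 1, Jak1 was higher (0.60) and Lifr (-1.15) and Il6st (-0.60) lower, where 16.1% of 5744 genes were higher and 9.52% lower. At time 2, Jak1 was higher (1.05) and Lifr (-1.10), Pim1 (-0.69) and Gbx2 (-1.26) lower, where 21.7% of 5681 genes were higher and 11.5% lower. Of these members, only Jak1 at both times and Pim1 at time 2 met the level of 20 CPM that the genes tested met. The time 1 set changed with the settings: the Lifr ratio was 0.02 when the members were among the genes used for clustering and -0.22 with a minimum of 5000 UMIs per cell, both within 1.5-fold. Junb was higher here too, at 179 against 34.8 CPM and 167 against 46.9 CPM, and so was Ptpn11 (Shp2), the phosphatase that links gp130 to the Ras pathway, at 51.4 against 30.6 CPM and 59.0 against 27.9 CPM. Tfcp2l1 (-1.72 and -2.32) and Klf4 (-1.16 and -1.89) were lower. Of the listed genes, 3 of 12 were higher and 2 lower at time 1, and 3 of 10 higher and 2 lower at time 2.

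Endoderm-like cells of time 2 had more of the receptor and less of the Pim kinases. Lifr (0.82) and Jak1 (0.60) were higher and Pim1 (-1.63), Pim3 (-1.32) and Gbx2 (-0.60) lower, where 21.8% of 5619 genes were higher and 11.8% lower. Gbx2 did not meet the level of 20 CPM that those genes met, and Lifr met it in endoderm-like cells alone. Jak1 and Gbx2 lay next to the limit, and the cluster held 104 cells. Il6st, at 17.8 CPM (14.9 to 21.0), differed from the pluripotent-like level by 0.15 on the log2 scale. Gab1, an adaptor between receptors and Ras or phosphoinositide signalling, was higher, at 91.9 against 59.0 CPM. Tfcp2l1, at 22.8 against 72.4 CPM, and Socs2, at 45.4 against 104 CPM, were lower. The endothelial-like cells likewise had more Jak1 (1.03 and 1.56). They also had more Stat3 (1.53 and 0.94), which was within 1.5-fold in endoderm-like cells (0.30). Il6st and Pim3 were lower there at time 1, and Socs3 was higher at time 2 (0.76). Lif was past the limit at time 1 as well (-0.73), but on 4 UMIs in 70 cells, and its interval (0.267 to 2.51 CPM) overlapped the pluripotent-like one. At time 1 14.9% of 5725 genes were higher and 11.4% lower in this comparison, and at time 2 20.3% of 5642 were higher and 12% lower. Il6st and Lif were below the 20 CPM of those genes at time 1.

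Fibroblast-like cells differed from pluripotent-like cells in most members. At time 1, Lif, Jak1 and Stat3 were higher and Lifr, Pim1, Pim3 and Gbx2 lower. In that comparison 26.9% of 6183 genes were higher and 29.7% lower, so most of the genes tested were past 1.5-fold. So were 7 of the 9 members, of which only Jak1, Stat3, Pim1 and Pim3 met the level of 20 CPM that those genes met. At time 2, Lif and Jak1 were higher and Lifr, Pim1, Pim3 and Gbx2 lower, where 24.8% of 5862 genes were higher and 25% lower. Of these members, only Jak1, Pim1 and Pim3 met that level. Pim1 at time 1 (-0.65) was -0.14 with a minimum of 5000 UMIs per cell, which ended the call. Median-of-ratios scaling gave -0.45 for Pim1 and -0.55 for Gbx2 at time 1, which ended both calls, and took Stat3 at time 2 from 0.53 to 0.76, past the limit. The interleukin 11 ligand and receptor chain, of the same cytokine family, were also higher in these cells. Il11ra1 held 24.1 against 2.99 CPM at time 1 and 23.9 against 2.40 CPM at time 2, and Il11 held 36.0 against 0.587 CPM at time 2. Of 13 listed genes at 20 CPM or more, 5 were higher and 5 lower at time 1, and 5 higher and 3 lower at time 2.

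The lines differed in X number, so pluripotent-like cells were split by X-linked RNA. X-high cells had no Y-linked UMI and a ratio of X-linked to autosomal UMIs of at least 1.2 times the median of cells with 2 or more Y-linked UMIs (Y-positive cells), and X-low cells lay below that. They made up 5095 X-high, 2773 X-low and 671 Y-positive cells at time 1 and 2932, 14643 and 1404 at time 2, so the X-high share among cells without a Y-linked UMI was 64.8% at time 1 and 16.7% at time 2. Socs3 stood at 10.3 CPM (9.97 to 10.7) in X-high cells, 18.8 CPM (18.1 to 19.5) in X-low cells and 19.7 CPM (18.4 to 21.1) in Y-positive cells of time 1. At time 2 these were 14.7 CPM (14.2 to 15.3), 22.7 CPM (22.4 to 23.1) and 21.0 CPM (20.1 to 22.0). X-high cells were the lowest of the 3 classes at both times. X-low and Y-positive cells had overlapping intervals at time 1, and at time 2 differed by less than either did from X-high cells.

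Gbx2 and Stat3 were also lowest in X-high cells in both libraries. Gbx2 held 0.955, 2.45 and 1.77 CPM in X-high, X-low and Y-positive cells of time 1, and 2.496, 5.13 and 4.15 CPM at time 2. Stat3 held 13.3, 18.3 and 19.01 CPM at time 1 and 23.3, 33.2 and 31.9 CPM at time 2. The X-high over X-low log2 ratios were -0.80 and -0.60 for Socs3, -0.82 and -0.81 for Gbx2, and -0.44 and -0.50 for Stat3. At time 1, 1.5% of 5276 genes were lower past 1.5-fold in X-high cells and 5.72% higher, against 2 members lower (Socs3 and Gbx2) and 0 higher, neither of which reached 20 CPM. At time 2, 2.65% of 5163 genes were lower and 8.08% higher, again against Socs3 and Gbx2, of which Socs3 met that level in X-low cells alone. The Socs3 call of time 2 lay at the limit and ended with doublets kept (-0.58), and with a pseudocount of 5 CPM it ended (-0.49) as did that of Gbx2 (-0.43). Pim1 differed by -0.02 and 0.18 and Il6st by 0.08 and 0.18. In X-high cells Pim3 was higher, at both times by less than 1.5-fold (129 against 108 CPM, and 119 against 93.7 CPM). X-high cells had more UMIs, at medians of 53075 against 46664 at time 1 and 55239 against 49484 at time 2.

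The Socs3 difference was present inside the Rhox9-led cluster, at -0.70 at time 1 (3862 X-high and 2661 X-low cells) and -0.64 at time 2 (358 and 172 cells). It was -0.75 inside the Jam2-led cluster of time 2 (2021 and 70 cells) and smaller inside the Gm46332-led (-0.29) and Nanos3-led (-0.30) clusters of that time. The Gbx2 ratios in these 5 settings, in the same order, were -1.01, -1.09, -0.49, -0.59 and -0.58, of which the Jam2-led and Nanos3-led ones were within 1.5-fold. The X classes also differed in called autosomal gains. At time 1, 4785 of 5095 X-high and 1934 of 2773 X-low cells had none. At time 2, 2495 of 2932 X-high and 1440 of 14643 X-low cells had none. Among cells without a called autosomal gain, the Socs3 ratio was -0.94 at time 1 and -0.62 at time 2. The Gbx2 ratio was -0.76 and -0.30, which ended the Gbx2 call at time 2. Stat3 was within 1.5-fold in this comparison at both times. Of the other pathway genes, Klf4 held 254 CPM in X-high and 103 CPM in X-low cells of time 2, and Gab1 40.5 and 62.4 CPM, in a library where 2021 of the 2932 X-high cells lay in the Jam2-led cluster. Inside the Jam2-led, Gm46332-led and Nanos3-led clusters of time 2 the X-high over X-low ratio of Klf4 was 0.94, 0.38 and 0.39. Klf4 went the other way among Rhox9-led cells of time 1, at 46.1 CPM in the X-high and 77.4 CPM in the X-low ones. Over all pluripotent-like cells of time 1 none of the 11 listed genes at 20 CPM or more was past 1.5-fold.

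**Figure D3:**
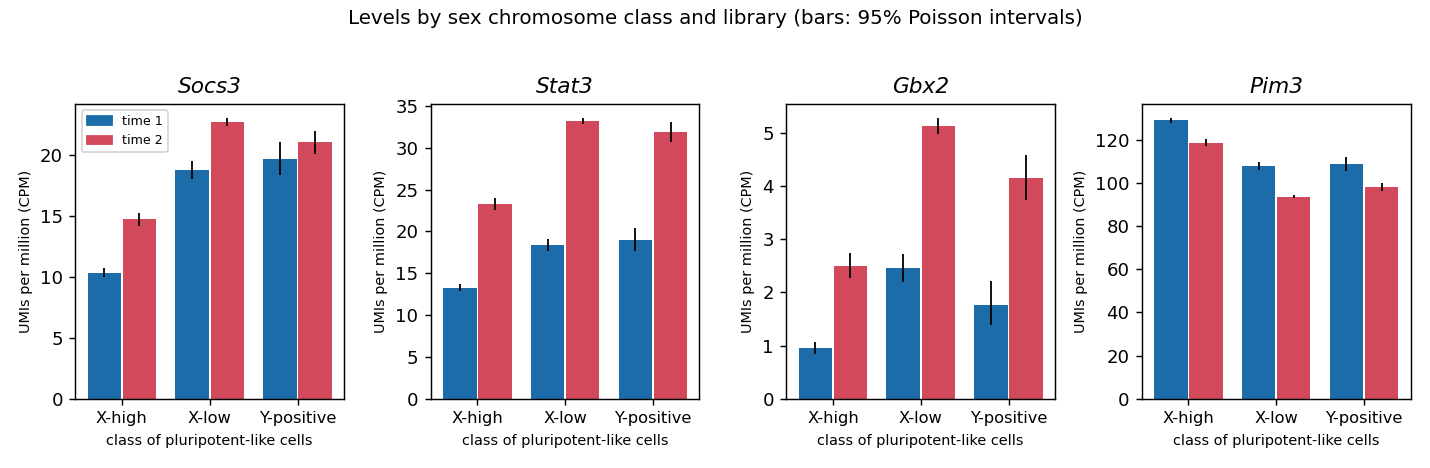
Levels of Socs3, Stat3, Gbx2 and Pim3 (vertical axes, CPM, from 0) in X-high, X-low and Y-positive pluripotent-like cells of the time 1 and time 2 libraries, with 95% Poisson intervals for counting error. Socs3, Stat3 and Gbx2 were lowest in X-high cells in both libraries, and Pim3 was highest there.

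Between time 1 and time 2, in medium with serum and LIF throughout, 3 of the 9 genes were higher and 1 was lower past 1.5-fold in pluripotent-like cells. Gbx2 (1.18), Stat3 (1.01) and Socs3 (0.59) were higher and Lif (-0.69) was lower. Of 5300 genes that reached 20 CPM in 1 library or both, 6.02% were higher and 8.64% lower. Stat3 and Socs3 met this level at time 2 alone, and Gbx2 and Lif at neither time. The median log2 ratio was -0.17 over the 9 members and 0.02 over all genes tested. Lifr differed by 0.35, Il6st by -0.17, Jak1 by -0.38, Pim1 by -0.34 and Pim3 by -0.30. Among other Stat3 targets, Tfcp2l1 went from 39.5 to 72.4 CPM and Klf4 from 76.9 to 126 CPM. Pias1, named as an inhibitor of activated Stat proteins, went from 20.7 to 12.8 CPM. Of 11 listed genes at 20 CPM or more, these 3 were the ones past 1.5-fold. Tfcp2l1 stayed past it in X-high, X-low, Y-positive and gain-free cells (0.90, 1.05, 0.87 and 0.76), but not within any of the 4 clusters (0.19 to 0.56). Klf4 stayed past it in X-high (1.73), gain-free (1.33) and Jam2-led cells (0.98). It did not in X-low (0.38), Y-positive (0.30), Rhox9-led (0.45), Nanos3-led (0.23) and Gm46332-led cells (-0.12).

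These passage differences were not shared by all subsets, and the clusters that hold the pluripotent-like cells differ between the libraries. Stat3 and Gbx2 kept a ratio past 1.5-fold within X-high cells (0.76 and 0.84), X-low cells (0.82 and 0.83), Y-positive cells (0.72 and 0.90) and cells without a called gain (0.72 and 0.67). Within the Rhox9-led cluster, however, the ratios of Stat3 and Gbx2 were 0.17 and 0.13, and within the Jam2-led cluster 0.50 and 0.39. Within the Gm46332-led cluster, with 54 cells at time 1, they were 0.34 and -0.09. Within the Nanos3-led cluster, with 57 cells at time 1, Stat3 differed by 0.48, and Gbx2 was lower at time 2 (-0.65; 3.88 CPM, then 2.11 CPM). Neither gene was thus higher past 1.5-fold within any of the 4 clusters, and the direction of Gbx2 turned in 2 of them. In each turn the counting intervals of time 1 and time 2 overlapped. The Gbx2 intervals were 3.996 to 9.65 CPM at time 1 and 5.74 to 6.08 CPM at time 2 in the Gm46332-led cluster. In the Nanos3-led cluster they were 2.07 to 6.63 CPM and 1.94 to 2.29 CPM. Socs3 showed another pattern, with 0.95 in the Nanos3-led, 0.78 in the Jam2-led, 0.67 in the Gm46332-led and 0.43 in the Rhox9-led cluster, and 0.47 in X-high, 0.26 in X-low, 0.09 in Y-positive and 0.32 in gain-free cells. The Socs3 call rested on the margin of the limit, since median-of-ratios scaling gave 0.55. Lif was lower past 1.5-fold in X-high cells (-0.65), but within 1.5-fold in X-low cells (-0.40), Y-positive cells (-0.36) and cells without a called gain (-0.56), and also within each of the 4 clusters, at -0.53 in the Jam2-led and -0.30 in the Nanos3-led cluster. The direction of Lif turned in the Rhox9-led (0.25) and Gm46332-led (0.40) clusters, and in each the counting intervals of time 1 and time 2 overlapped. Overlap of such intervals does not show that the interval of the ratio itself held 0. The Lif intervals were 2.197 to 2.49 CPM at time 1 and 2.38 to 3.68 CPM at time 2 in the Rhox9-led cluster. In the Gm46332-led cluster they were 0.0073 to 1.615 CPM, in 54 cells, and 0.642 to 0.763 CPM. Passage, library preparation and the make-up of the pool cannot be told apart with 1 library at each time.

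**Figure D4:**
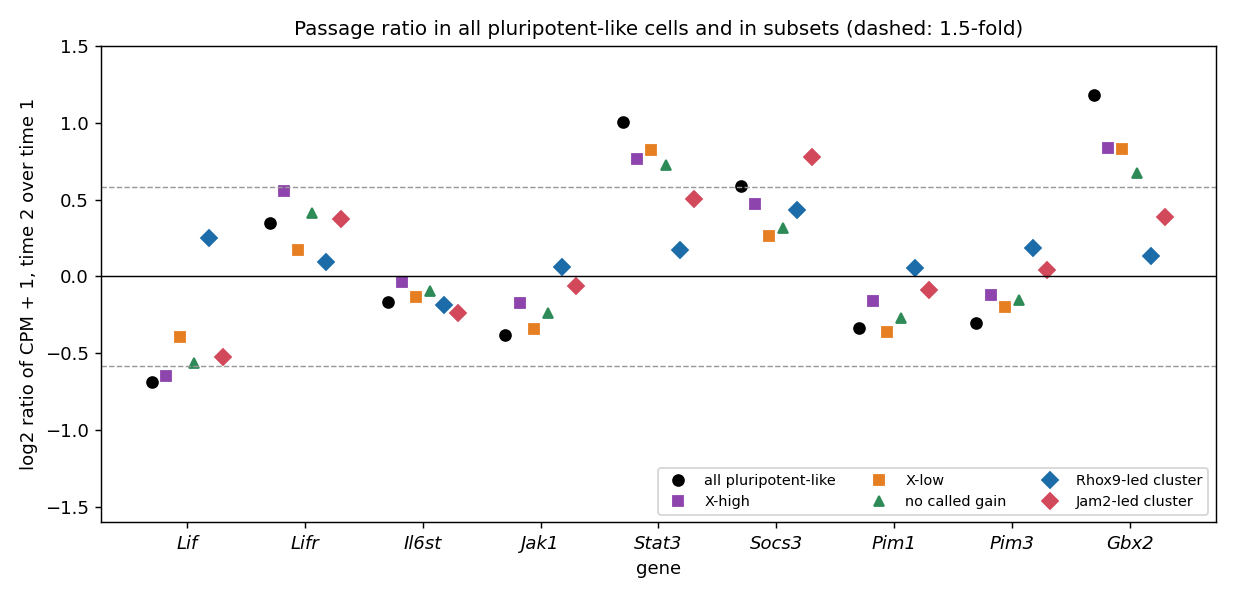
Log2 ratio of CPM + 1 at time 2 over time 1 (vertical axis) for the 9 genes (horizontal axis) in all pluripotent-like cells and in 5 subsets; dashed lines mark 1.5-fold. Stat3 and Gbx2 lie above the upper line in all pluripotent-like, X-high, X-low and gain-free cells, but not within the Rhox9-led or Jam2-led cluster.

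Gbx2 lies on chromosome 1, and the share of pluripotent-like cells with a called gain of that chromosome (a share of autosomal UMIs at least 1.3 times the time 1 median) went from 1.65% to 61.0%. At time 2, Gbx2 held 5.76 CPM in 12287 cells with the gain and 2.76 CPM in 7871 cells without it, a log2 ratio of 0.85. The ratio was 0.47 with a pseudocount of 5 CPM, which ended the call. Gbx2 was the only member past 1.5-fold, where 0.857% of 5018 genes were higher and 2.35% lower, and it did not meet the level of 20 CPM that those genes met. Stat3, on chromosome 11, differed by 0.42 in the same comparison. Within the Gm46332-led cluster Gbx2 held 6.52 CPM with the gain and 3.66 CPM without it (0.69), and within the Nanos3-led cluster 2.34 and 1.88 CPM (0.21). At time 1, with 152 cells carrying the gain, no member was past 1.5-fold: Gbx2 held 2.35 CPM with it and 1.45 CPM without it (0.45), and the ratio was 0.36 within the Rhox9-led cluster (106 cells). A called gain of chromosome 11, which carries Lif, Stat3 and Socs3, was found in 1.14% and 1.87% of pluripotent-like cells. In those cells Lif, Stat3 and Socs3 differed from cells without it by 0.35, 0.36 and 0.55 at time 1 (105 cells) and by -0.04, 0.21 and 0.07 at time 2 (376 cells). Of the members on other chromosomes, Pim1 differed by -0.61 at time 1 and Gbx2 by -0.84 at time 2. No other member was past 1.5-fold, and Gbx2 was below 20 CPM. No share over all genes is given for this comparison.

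From cell to cell, Socs3 and Gbx2 varied more than most genes of like level. With each pluripotent-like cell thinned to 10000 UMIs, the Fano factor (variance over mean) of Socs3 was 1.21 at time 1 and 1.18 at time 2, where the 90th percentile over genes of like mean was 1.11 and 1.15. That of Gbx2 was 1.12 and 1.15, against 1.08 at both times. Pim1, at 1.45, lay just above its percentile of 1.44 at time 1 and, at 1.35, below 1.37 at time 2. The other 6 members lay below theirs at both times, with Stat3 at 1.07 against 1.11 and 1.14. The mixture of X classes and clusters enters these values.

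The genes most like each member were ranked by Pearson r over the 10 sums of pluripotent-like and primed-like clusters, among 3303 genes. For Lifr they were Esrrb (0.98), a naive pluripotency factor, Tet1 (0.97), which oxidises methylated cytosine, and Slc29a1 (0.97). For Il6st they were Vangl1 (0.97), Polr2e (0.97) and Rif1 (0.96), and for Stat3 Cops9 (0.96), Psmc6 (0.95) and Parp2 (0.95). Esrrb was itself among the markers used to name the clusters, so its r with Lifr is not independent of how these sums were chosen. Socs3 had St13 (0.91) as its nearest gene, Pim1 Actr2 (0.93), Pim3 Atp6v1c1 (0.97) and Jak1 Napa (0.97). Over these sums, Stat3 and Jak1 ran in opposite directions (r -0.86), as did Jak1 and Gbx2 (-0.87). Over all 24 sums, among 4485 genes, the nearest were Trip12 for Lifr (0.88), Rab12 for Jak1 (0.96) and Tcf25 for Stat3 (0.91), and the sign of Stat3 and Jak1 was the opposite (0.68). Lif and Gbx2 were not ranked, being below 20 CPM in every sum.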

How the data were processed

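Single cells were captured with 10x Chromium version 3.1 chemistry in 1 library per time point, per the labels' protocols. The deposited files hold raw UMI counts (whole numbers for each gene in each barcode), which the authors made with Cell Ranger 6.1.2 and bcl2fastq 2.20.0.422 on mm10 (GRCm38), per the submitters' processing notes. Lipid-tag libraries were not analysed here. The tables hold 145288 and 52242 barcodes.

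A cell needed 18315 UMIs at time 1 and 18645 at time 2 (the 99th percentile over the 20000 largest barcodes, times 0.1), 1000 genes and at most 10% mitochondrial UMIs. Scrublet (scanpy 1.11.5) with its automatic threshold marked 0 cells at time 1. The time 2 threshold of 0.185 was therefore used for both, which removed 892 (3.47%) and 2285 (8.09%) cells. Joint clustering used 2000 variable genes, 30 components, 15 neighbours and Leiden resolution 0.5. Clusters were named from a list of markers, by judgement after the clusters were seen, and a cluster whose leading genes gave no clear name was left unnamed. Classes were measured from 50 cells upward, and no trophoblast-like cluster was found.

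The members, lists and subsets were chosen with earlier results of these data known. The text names all 9 members and, per comparison, some of up to 6 pathway genes with the largest ratio among those at 20 CPM or more, of a list of 35. Genes most like a member were taken as the 3 with the highest r among those with at least 50 CPM in some sum. CPM, intervals and ratios were computed from the counts, with coordinates from GENCODE M21 and promoters from RefSeq. The ratio and thinning steps were tested on simulated data. Alternatives changed the pseudocount, scaling (edgeR 4.0.16 factors), clustering, filters and subsets. The subsets of 1 cluster were added after seeing the data.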

Additional observations from a re-analysis of the deposited data

Results flagged for a closer look

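Ratios between cell groups that had opposite signs at the 2 times were noted. Listed here are those whose interval for counting error lay off 0 at both times. Jak1 and Lif (naive-marker-high cluster), Jak1 (primed-like cells) and Pim1 (X-high cells) also changed sign, but their intervals held 0 at time 1. With 1 library at each time, no such difference could be tested. Given as the log2 ratio at time 2 minus that at time 1, for the naive-marker-high cluster against other pluripotent-like cells it was -0.57 for Stat3 (0.14 and -0.44), 0.30 for Pim1 (-0.19 and 0.10), 0.40 for Pim3 (-0.13 and 0.27) and -0.91 for Gbx2 (0.29 and -0.62). For primed-like against pluripotent-like cells it was -0.69 for Stat3 and -0.98 for Gbx2. For mesendoderm-like cells it was 0.60 for Lif and -0.95 for Pim1, the latter with 192 CPM at time 1 and 78.3 CPM at time 2. For X-high against X-low cells it was 0.38 for Lifr (-0.30 and 0.08).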

How the results depend on the processing

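Of the recomputed counts of members past 1.5-fold, 107 stayed within 1.5 times the reported count and 20 did not. With a pseudocount of 5 CPM the count was 1 for passage, mesendoderm-like cells of time 1, X class at time 1 and primed-like cells of time 2, 0 for the naive-marker-high cluster and X class of time 2 and for the chromosome 1 gain, and 3 for endoderm-like cells. For passage it was 2 in X-low cells and in cells without a called gain, 0 in the Rhox9-led cluster and 1 in the naive-marker-high cluster, against 4. With the members among the genes used for clustering it was 5 for mesendoderm-like cells of time 1, 4 for primed-like cells of time 2 and 3 for endoderm-like cells. Keeping doublets gave 1 for the naive-marker-high cluster of time 2, 3 for endoderm-like cells and 1 for X class at time 2, a minimum of 5000 UMIs gave 3 for endoderm-like cells, and Leiden resolution 1.0 gave 1 for the naive-marker-high cluster of time 2. Under these settings the direction turned for Lif between the times in the Rhox9-led cluster (0.25). It also turned for Lifr in mesendoderm-like cells of time 1 with the members among the clustering genes (0.016). The Il6st ratio of primed-like cells of time 2 (-0.56) turned positive with a minimum of 5000 UMIs, as given above. These come beside the turns of Gbx2 and Lif within single clusters given above. For each turn of Gbx2 and Lif the counting intervals of time 1 and time 2 overlapped. Of the recomputed values other than these counts, 718 were classed as the same, 529 as moved and 2 as reversed. Except where the pseudocount or a subset of cells makes the change by construction, the cause was not tested. TMM factors shifted CPM by 0.15 on the log2 scale in the passage comparison and by -0.25 in mesendoderm-like cells of time 2, and median-of-ratios factors by 0.20 and 0.23 in fibroblast-like cells; log2 ratios of CPM + 1 of scarce genes moved by less. Lif and Gbx2, at a few CPM, rest on few UMIs per cell and move with the pseudocount. No paired analysis was possible because each time point had 1 library.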
